A study of Mus musculus with 10 samples.

Results

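The mRNA levels of 46 genes for proteins of the cytosolic ribosome were followed over the 10 arrays of a mouse blood stem and progenitor cell experiment. The genes were chosen by name: a probe set was kept where the platform annotation gave it exactly 1 gene symbol and that symbol was Rpl or Rps with a number and at most the letters a, l, x or y, or was Rplp0, Rplp2 or Rpsa. Ribosomal S6 kinases and pseudogenes were left out, and each gene was represented by its probe set of highest mean level. The 46 genes were taken from 100 probe sets, of 18193 genes and 45037 probe sets measured. They comprised 22 genes of the large subunit, 2 of its acidic stalk and 22 of the small subunit. A further 29 ribosomal protein genes, Rplp1 among them, were read by probe sets with several symbols alone and were not members.

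The study asked which genes respond to HOXB4, a homeodomain transcription factor that expands blood stem and progenitor cells in culture. Murine progenitors carried 1 of 2 retroviral constructs. HOXB4-ER is a fusion with an oestrogen receptor domain that enters the nucleus when 4-hydroxytamoxifen (TMX) is present, and it was expressed together with EGFP. HOXB4const served as the other construct, and the labels describe it no further. All groups went through 14 days of expansion in 10 nM TMX, in serum-free medium containing SCF, FLT3 ligand, IL-11 and IL-3. GFP+ LSK cells, which lack lineage markers and carry Sca1 and c-kit, were then sorted and cultured for 12 h more with TMX. They were divided between medium with and without TMX. The 5 groups were HOXB4-ER cells kept with 10 nM TMX for 1 h, HOXB4-ER cells 1 h after TMX removal, HOXB4-ER cells 4 h after TMX removal, HOXB4const cells given TMX for 1 h, and HOXB4const cells 1 h after its removal. There was no 4 h group with TMX, so the 4 h cells are compared with cells of another time. The groups had 2 arrays each, with replicate numbers 1 and 2 in the labels. The labels call them biological replicates, but nothing in them says which animal or transduction a number stands for, so that p-values measure the spread between these samples. TMX was present throughout the expansion of every group, the HOXB4const controls included.

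A cytosolic ribosome joins a large and a small subunit, each an RNA core covered by many different proteins that are needed in equal copy number. Most of these proteins are encoded by 1 active gene each, and their mRNAs are among the most abundant of a growing cell. Many of the mRNAs start with a 5' terminal oligopyrimidine tract, a C followed by a run of C and T, through which mTORC1 and LARP1 control their translation, and LARP1 also their stability. In blood, loss of 1 copy of certain ribosomal protein genes, Rps19 and Rps14 among them, is known to impair red cell formation, and free Rpl5 and Rpl11 bind Mdm2 and so stabilise p53.

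The start of a ribosomal protein gene carries the features that set it apart from most genes, so it is shown for the members that match the tract and for 3 paralogues that lack it. Most members also lacked the tract at the annotated start, so its absence is not particular to these 3. The sequences are the 20 bases before and the 10 bases from the annotated start, from RefSeq on build GRCm38.p6, 5' to 3' on the strand of the gene. Capitals mark the tract at the start and any CGGAAG, the core of an ETS-type site, on either strand.
Rpl14 (chr9:120571497-120571526, plus strand): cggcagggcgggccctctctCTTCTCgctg
Rpl35 (chr2:39005122-39005151, minus strand): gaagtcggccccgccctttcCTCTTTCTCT
Rpl38 (chr11:114668560-114668589, plus strand): cCGGAAGCGGAAGcctcgttCTTTCCCCgt
Rplp2 (chr7:141447631-141447660, plus strand): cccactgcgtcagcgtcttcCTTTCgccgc
Rps6 (chr4:86857358-86857387, minus strand): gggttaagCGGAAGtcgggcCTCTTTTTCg
Rps10 (chr17:27635235-27635264, minus strand): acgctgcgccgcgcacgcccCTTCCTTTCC
Rps18 (chr17:33955656-33955685, minus strand): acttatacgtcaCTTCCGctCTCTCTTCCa
Rps27 (chr3:90213639-90213668, minus strand): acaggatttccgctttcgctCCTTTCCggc
Rpl3l (chr17:24727806-24727835, plus strand): cagctgagtgttctagctctgtcatttgac
Rpl39l (chr16:10170208-10170237, plus strand): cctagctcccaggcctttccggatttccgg
Rps27l (chr9:66946066-66946095, plus strand): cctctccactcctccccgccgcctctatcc

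Of the 46 members, 40 were found by symbol in the RefSeq promoter table, which holds 27025 genes. A C at the annotated start followed by at least 4 C or T was present in 8 of the 40 (20%), against 3.01% of all genes in the table. The count depends on the annotated start, and a start that lies a few bases off the tract is not counted. In the 300 bases from 250 before to 50 after the start, CGGAAG lay on either strand in 29 of the 40 (72.5%), against 18.8% of all genes. The longer form CCGGAAGT, which contains CGGAAG and is counted within it, lay on either strand in 10 (25.0%), against 4.31%. TATAAA lay on either strand in 5 members (12.5%), against 15.7% of all genes, and the palindrome CACGTG, bound by MYC and other E-box factors, in 4 (10.0%), against 8.09%. Both the tract and CGGAAG were found in 7 members. These matches describe letters in a window and not bound sites.

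The values are log2 signals scaled by the authors to the same mean on each array. The hybridisation of each probe set has its own efficiency, and levels of different genes are therefore not ranked here as amounts of mRNA. On this scale 33 of the 46 members had a mean level of 12 or more, from Rps9 (12.15) to Rpl4 (13.64), with a median of 13.03, and are called the bright members. The median over all probe sets was 4.05. The other 13 were Rps27l (11.47), Rpl37 (10.44), Rps6 (9.45), Rps25 (8.66), Rpl14 (8.14), Rpl12 (7.82), Rpl27a (7.18), Rpl39 (6.83), Rps27 (5.84), Rpl39l (3.01), Rpl3l (1.58), Rps4l (0.66) and Rps16 (0.39). The last 4 lay below the median of all probe sets. The level of 12 was chosen after the values were seen, and nothing is tested with it. Just inside it lay Rps9 (12.15), and just outside it Rps27l (11.47).

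Of the 250 probe sets with a mean level of 12 or more, 126 carried a ribosomal protein symbol, alone or among several. The 46 member probe sets took 2.96% to 4.75% of the summed linear signal of an array. The share was 3.68% to 3.84% with quantile normalization, 2.16% to 3.37% with probe sets that lack the cross-binding suffix (41 genes) and 1.92% to 2.98% with the probe sets of each gene averaged. Of the members, 15 were read by probe sets whose suffix marks probes that can bind related transcripts, and ribosomal protein genes have many processed pseudogenes, so these values may hold signal of related copies.

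The arrays differed from each other in several measures, whose part in the levels of the ribosomal protein genes was not tested. The median of all probe sets ran from 3.96 to 5.32 and the 99.9th percentile from 12.70 to 13.64. The Gapdh control read at the 3' end exceeded that at the 5' end by 0.74 to 3.98 (log2), with the highest values on the HOXB4const array without TMX, replicate 2 (3.98), and the HOXB4-ER array 4 h without TMX, replicate 2 (3.47). Of the LSK markers, Kit read 8.72 to 10.93, Cd34 10.78 to 11.86, Gata2 8.61 to 10.05 and Flt3 5.70 to 8.11, and Ly6a had no probe set of its own. Between replicates, Flt3 was lower and Gata2 higher on replicate 2 in each group. Of the 12 measured genes of the LSK list, 10 were higher and 2 lower on replicate 2. Their median difference was 0.56, against -0.15 over all probe sets, with 0 calls in limma. Of the 15 measured genes of a monocyte and macrophage list, the median lay 0.83 to 1.85 above the gene's own mean on the 5 replicate 1 arrays and 0.89 to 1.94 below it on the 5 replicate 2 arrays, with Lyz2 running from 8.71 to 13.07. The summed level (log2) ran from 13.63 to 14.71 for the granulocyte list, 7.76 to 9.54 for erythroid and 6.91 to 9.63 for lymphoid genes. It ran from 12.49 to 13.28 for mast cells and basophils, and from 12.84 to 13.46 for the LSK list. The lists differ in their number of genes and in their probe sets, so the sums are not ranked between lists. In such bulk samples fewer cells of a type and less RNA per cell cannot be told apart.

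The bright members moved together from array to array. Each level was set against the gene's own mean over the 10 arrays and the median over the 33 genes was taken. That median was -0.31 and -0.20 on replicates 1 and 2 of HOXB4-ER with TMX, 0.43 and 0.16 at 1 h without TMX, and -0.46 and 0.35 at 4 h without TMX. In HOXB4const cells it was -0.13 and -0.13 with TMX, and 0.04 and 0.32 without TMX. All 33 lay above their own mean on both HOXB4-ER arrays at 1 h without TMX, and 0 of 33 did so on replicate 1 of the 4 h group. The 4 h pair split: 30 of 33 were above their mean on replicate 2. Of the 33 genes, 27 had their lowest level on replicate 1 at 4 h, and 19 had their highest on replicate 1 at 1 h without TMX.

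**Figure D1:**
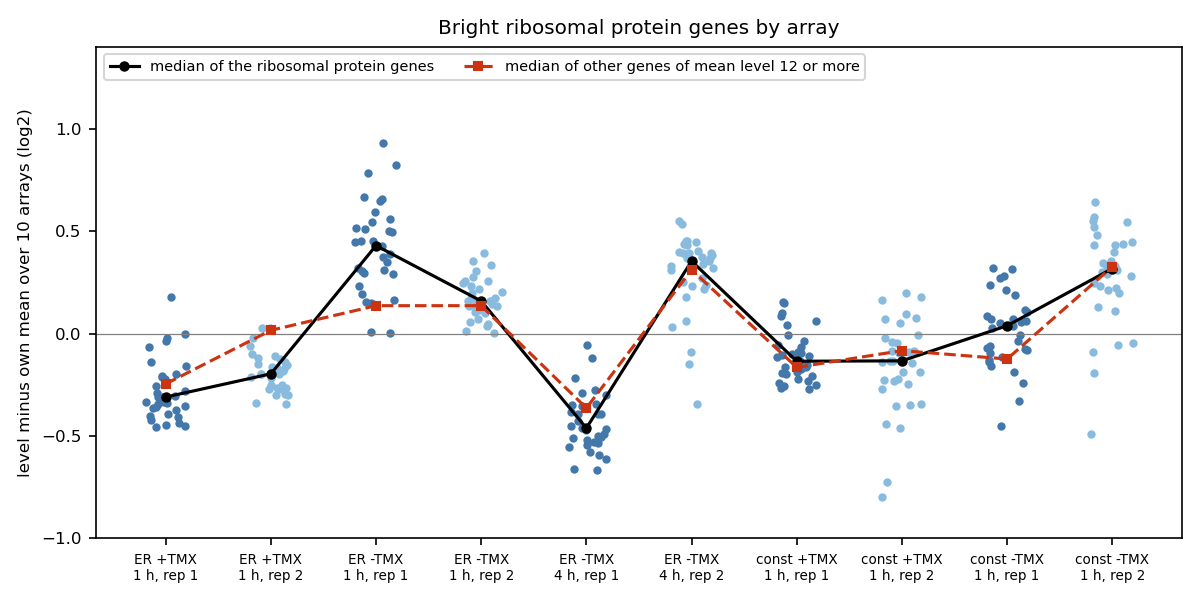
Level of each of the 33 bright ribosomal protein genes minus its own mean over the 10 arrays (log2, y axis) on every array (x axis, ER is HOXB4-ER, const is HOXB4const, -TMX and +TMX are without and with tamoxifen). Dark points are replicate 1 and light points replicate 2, the black line joins the median of these genes and the dashed red line the median of 68 other genes of mean level 12 or more; both lines are lowest on the 4 h replicate 1 array (-0.46 and -0.36).

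Other genes above the same level of 12 also shifted from array to array. The comparison set was 68 genes with 1 symbol and a mean level of 12 or more, chosen after the data were seen. Symbols starting with Rpl or Rps were left out, as were listed ribosomal proteins outside the name rule. Listed elongation factors and other mRNAs with a 5' tract were also left out. Initiation factors and genes of mTORC1 or ribosome assembly were not left out. The set was not matched in level, since the median of its mean levels was 12.25, against 13.03 for the bright members. Their median deviation, in the same order of arrays, was -0.25 and 0.02, 0.14 and 0.14, and -0.36 and 0.31 in HOXB4-ER cells, and -0.16 and -0.08, and -0.12 and 0.33 in HOXB4const cells. It was lowest on the same array as that of the ribosomal protein genes, and 33 of the 68 genes had their lowest level there. The median range of a bright member over the 10 arrays was 0.99, and 0.63 once the median shift of the comparison set was subtracted from each array. The median SD within groups (n = 2 arrays in each of 5 groups) was 0.32 for bright members, 0.35 for the comparison set, 0.62 for the other 13 members and 0.92 for all probe sets.

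Among the large subunit genes, Rpl4, whose protein lines the exit tunnel, showed the shared course. Rpl4 read 13.19 and 13.38 with TMX, 14.30 and 13.79 at 1 h without TMX, and 13.02 and 14.08 at 4 h without TMX in HOXB4-ER cells, and 13.37 and 13.45 with TMX and 13.69 and 14.07 without TMX in HOXB4const cells. Both pairs at 1 h lay above their TMX pairs without overlap, while the 4 h pair spanned nearly the whole range. Rpl38, a small protein known for its part in the translation of Hox mRNAs, read 12.98 and 13.22 with TMX, 14.26 and 13.57 at 1 h and 12.77 and 13.98 at 4 h in HOXB4-ER cells, and 13.33 and 13.09, then 13.35 and 13.78 in HOXB4const cells. Its range of 1.49 was among the widest of the bright members. Rpl13a, which can leave the ribosome to silence inflammatory mRNAs, read 13.05 and 13.20, 13.81 and 13.40, 12.78 and 13.75 in HOXB4-ER cells, and 13.25 and 13.28, then 13.33 and 13.76 in HOXB4const cells.

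Rpl11, which binds Mdm2 when ribosome assembly fails, kept within a narrower range. It read 12.42 and 12.50, 12.72 and 12.69, and 12.21 and 12.90 in HOXB4-ER cells with TMX and at 1 and 4 h without it, and 12.60 and 12.34, then 12.42 and 12.81 in HOXB4const cells. The 1 h pair without TMX lay just above its TMX pair, and the other groups overlapped. Rpl22, whose loss blocks T cell development, read 12.56 and 12.68, 13.15 and 12.96, and 12.32 and 13.29 in HOXB4-ER cells, and 12.65 and 12.79, then 12.65 and 13.32 in HOXB4const cells. The smallest SD within groups belonged to Rpl27 (0.06) and Rpl8 (0.14), both of the large subunit, followed by Rps14 (0.20), Rps15 (0.21) and Rps26 (0.23). These SDs are those of the probe set that represents each gene.

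The stalk, which recruits the elongation factors, was read through Rplp0 and Rplp2. Rplp0, its base, read 12.81 and 12.98 with TMX, 14.11 and 13.24 at 1 h, and 12.52 and 13.41 at 4 h in HOXB4-ER cells, and 12.91 and 12.83, then 13.46 and 13.53 in HOXB4const cells. Its range of 1.59 was the widest of the 33 bright members. Both constructs had higher Rplp0 levels on both 1 h arrays without TMX than on both arrays with TMX. Rplp2, which with Rplp1 forms the flexible dimers, read 13.00 and 13.04, 13.90 and 13.32, and 12.82 and 13.58 in HOXB4-ER cells, and 13.22 and 13.22, then 13.58 and 13.42 in HOXB4const cells.

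Among the small subunit genes, Rpsa, also described as a laminin receptor, read 12.84 and 13.17, 13.56 and 13.38, and 12.74 and 13.72 in HOXB4-ER cells, and 13.07 and 13.35, then 13.30 and 13.59 in HOXB4const cells. Rps3, which has a role in DNA repair, read 12.54 and 12.87, 13.31 and 13.04, and 12.53 and 13.31 in HOXB4-ER cells, and 12.74 and 13.09, then 13.31 and 13.19 in HOXB4const cells. Rps10 read 12.69 and 12.51, 13.63 and 13.19, and 12.51 and 13.09 in HOXB4-ER cells, and 12.91 and 12.12, then 12.77 and 13.08 in HOXB4const cells. In the probe set that represents Rps10, the range was 1.51 and the lowest array was HOXB4const with TMX, replicate 2. Rps6, the substrate of the S6 kinases, was read at a mean of 9.45 and did not follow the bright members. It read 9.50 and 9.58, 9.10 and 9.39, and 9.50 and 9.75 in HOXB4-ER cells, and 9.53 and 9.47, then 8.89 and 9.76 in HOXB4const cells, so that its 1 h arrays without TMX were below its TMX arrays in HOXB4-ER cells.

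**Figure D2:**
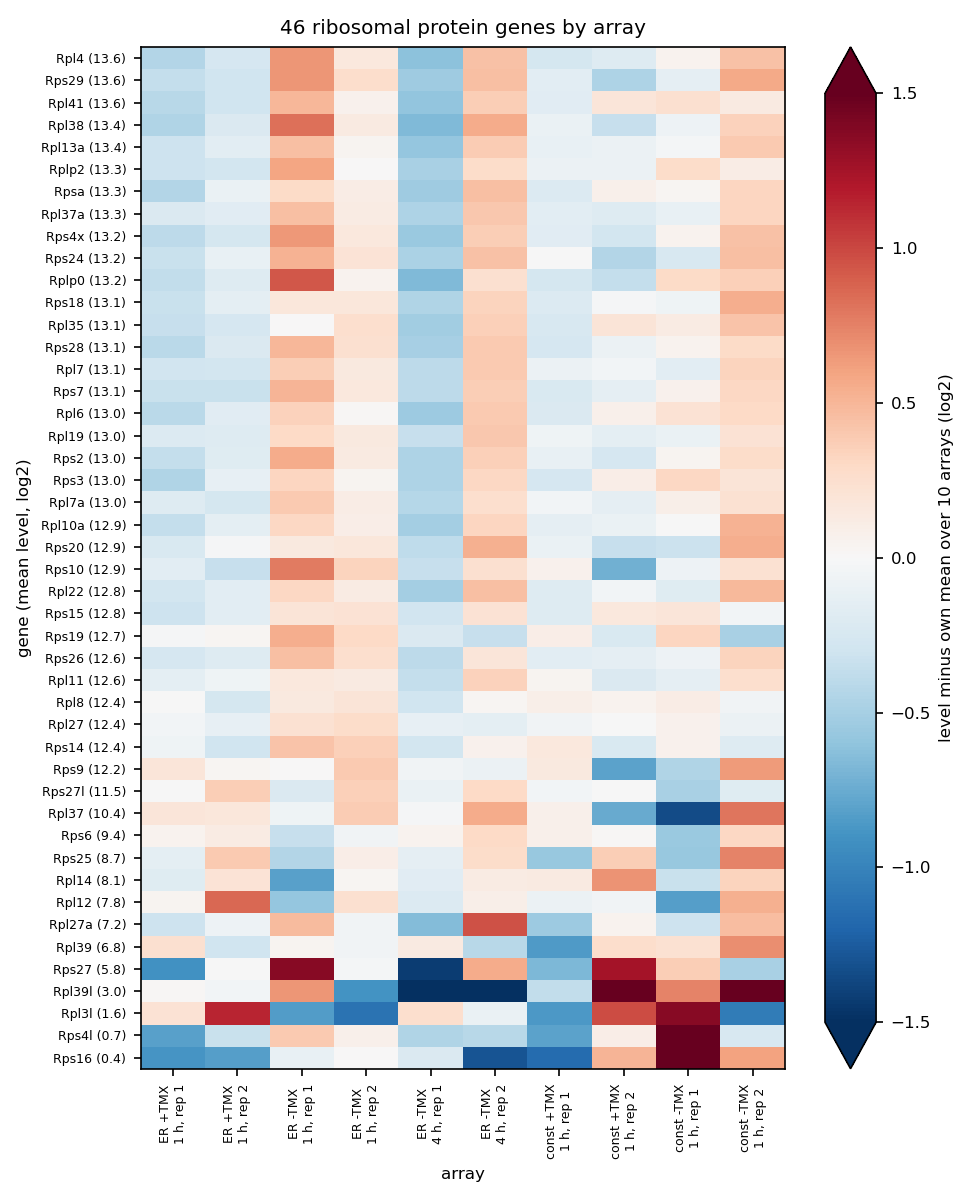
Level minus the gene's own mean over 10 arrays (log2, colour) for the 46 ribosomal protein genes (y axis, sorted by mean level, which stands in brackets) on each array (x axis). The upper 33 genes share a course, with 33 of 33 above their mean on both HOXB4-ER arrays at 1 h without TMX and 0 of 33 on the 4 h replicate 1 array; the colour scale ends at 1.5 in each direction.

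A set of 4 members departed from that course on the same arrays and was singled out after their values were seen. Rps19, the gene most often mutated in Diamond-Blackfan anaemia, read 12.72 and 12.76, 13.28 and 13.04, and 12.52 and 12.39 in HOXB4-ER cells, and 12.84 and 12.51, then 13.06 and 12.25 in HOXB4const cells. Relative to the median deviation of the bright members, Rps19 lay at -0.70 on replicate 2 at 4 h and at -0.81 on replicate 2 of HOXB4const without TMX. On the same arrays the departure was -0.50 and -0.41 for Rpl27, -0.29 and -0.51 for Rps14, the gene of the 5q- syndrome, and -0.32 and -0.37 for Rpl8. Rpl27 has 3 probe sets, and its departure is that of the 1 that represents it. The others read 11.65 and 11.73 (mean 11.29), and 11.52 and 11.88 (mean 11.14) on these arrays, above their own means. The 2 arrays are those with the largest Gapdh 3' minus 5' difference (3.47 and 3.98). The next largest was 2.93, on replicate 2 of HOXB4const with TMX. There the departure was -0.09 for Rps19, -0.10 for Rps14, 0.13 for Rpl27 and 0.18 for Rpl8. The part of the Gapdh difference in the departures was not tested.

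**Figure D3:**
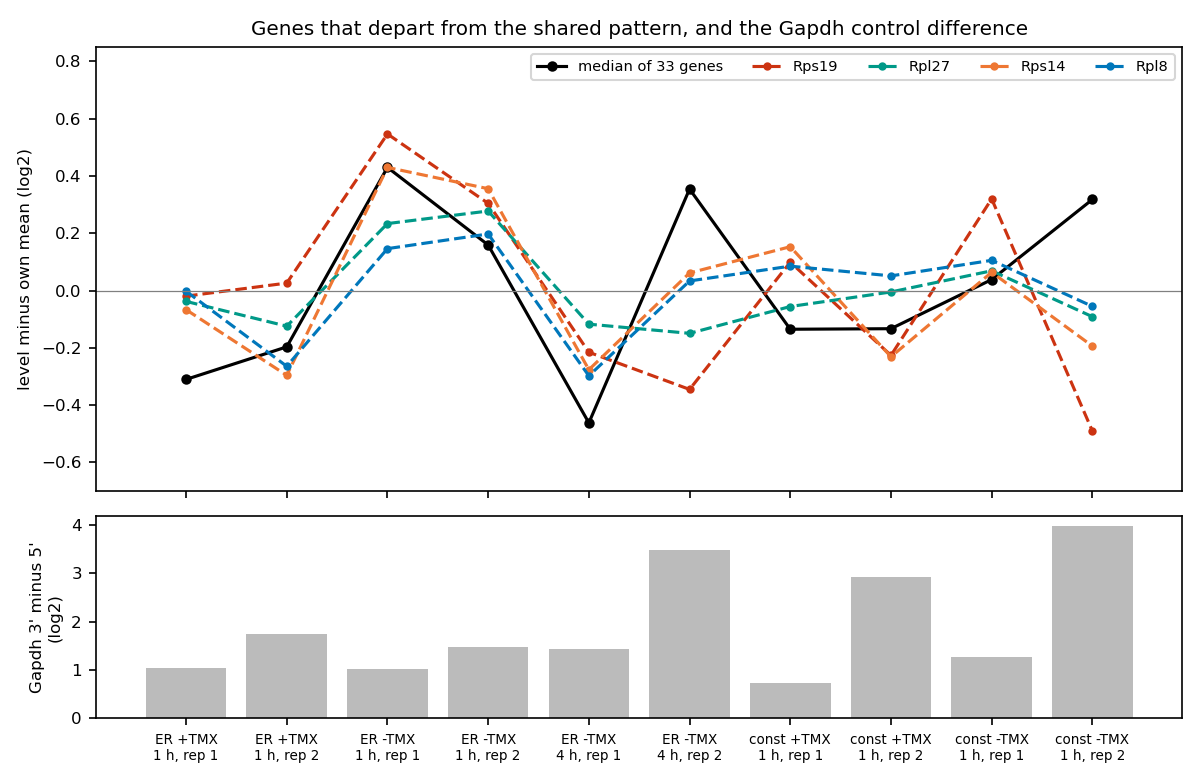
Upper panel: level minus own mean over 10 arrays (log2, y axis) of Rps19, Rpl27, Rps14 and Rpl8 (dashed) and the median of the 33 bright ribosomal protein genes (black) by array (x axis). Each gene is drawn from the probe set that represents it. Lower panel: the Gapdh 3' minus 5' control difference (log2, bars from 0); the arrays on which the black line lies above all 4 genes have the tallest bars (3.47 and 3.98).

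Different probe sets of a gene did not always give the same values. On replicate 2 of HOXB4const with TMX and replicate 1 of HOXB4const without TMX, some probe sets fell below all 8 other arrays. This was so for 9 of the 70 member probe sets with a mean level of 9 or more (12.9%) and for 270 of 2842 other probe sets of that level (9.50%). Those 9 included 3 probe sets of Rps24. For Rpl7 another probe set read 10.06 and 10.32 on these arrays and 11.68 to 12.95 on the other 8, whereas the probe set that represents the gene read 13.05 and 12.93 there. For Rps9 the representing probe set read 11.35 and 11.70 on them and 12.06 to 12.79 on the others, and for Rpl37 it read 9.68 and 9.10, against levels of 10.38 to 11.24. The pattern was noticed after the data were seen and crosses the TMX groups.

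Removal of TMX for 1 h in HOXB4-ER cells, which asks what follows when HOXB4 leaves the nucleus, was accompanied by higher readings of the bright ribosomal protein genes, none of which passed the test. All 33 bright members had a higher mean without TMX, by 0.10 to 0.81 (log2), with a median of 0.48. Of the 46 members, 38 were higher and 8 lower, with a median of 0.47, against a median of 0.12 over all probe sets. The comparison set was higher in 65 of 68, with a median of 0.26. The largest differences among the bright members were those of Rpl38 (0.81 ± 0.55, limma standard error, n = 2 and 2) and Rps10 (0.81 ± 0.49), and Rps27 had 1.13 ± 0.96 among the others. The most negative were those of Rpl3l (-1.65 ± 0.93), Rpl12 (-0.62 ± 0.61) and Rpl14 (-0.40 ± 0.51). The difference of Rps10 is that of 1 of its 6 probe sets. With TMX and then without, others read 12.49 and 12.42, then 12.90 and 12.92, and 12.30 and 12.22, then 12.37 and 12.62. The rest read 12.22 and 12.30, then 12.71 and 12.70, 10.85 and 11.30, then 8.70 and 10.76, and 5.76 and 5.55, then 4.72 and 6.07.

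In limma, 0 of the 46 members passed an adjusted p of 0.05 in this comparison (smallest adjusted p 0.9999), beside 0% of the 45037 probe sets (0 called, 2145 with an unadjusted p under 0.05, of which 0 were members). Both arrays without TMX exceeded both arrays with TMX for 35 members, beside 21.1% of all probe sets, and for 32 of the 33 bright members against 30 of the 68 comparison genes. Rps9 was the bright member that overlapped. For Rpl3l and Rps6 both arrays without TMX were lower, beside 11% of all probe sets. The 95% interval of a bright member's difference reached a median of 1.10 to either side, wider than the largest difference of a bright member (0.81). Within replicate numbers 1 and 2 the bright median was 0.70 and 0.35. With each array centred on its median the median difference of the 46 genes was 0.08, and with quantile normalization it was 0.01.

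At 4 h after removal the readings of HOXB4-ER cells were compared with the same TMX arrays. The bright members had a median difference of 0.20, with 30 of 33 higher, and the comparison set had 0.12, with 53 of 68 higher. The 46 members had a median of 0.16, with 36 higher, against -0.02 over all probe sets. The 2 arrays of the 4 h group went opposite ways. Within replicate numbers 1 and 2 the bright median was -0.17 and 0.55. Without replicate 1 of that group the median of the 46 genes was 0.57, and without replicate 2 it was -0.22. Rpl27a (0.34), Rps7 (0.33) and Rps29 (0.29) were the most positive, and Rpl39l (-1.71 ± 0.82), Rpl3l (-0.60) and Rpl12 (-0.50) the most negative. The other probe set of Rps7 read 12.55 and 12.30 with TMX and 12.31 and 12.37 at 4 h. That of Rpl27a (mean 2.23) read 2.35 and 3.15, then 2.31 and 0.33. The others of Rps29 read 13.00 and 13.04, then 12.86 and 13.66, and 12.86 and 12.92, then 12.72 and 13.52. In limma 0 of 46 members and 0% of all probe sets passed (smallest member adjusted p 1.0, 1509 probe sets with an unadjusted p under 0.05, of which 0 were members). Both 4 h arrays were higher than both TMX arrays for 0 members, beside 14.8% of all probe sets. They were lower for 3, Rpl39l, Rps19 and Rps9, beside 15.2%.

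Between 1 h and 4 h without TMX, the bright members had a lower mean at 4 h in 33 of 33, with a median of -0.34, and the comparison set had -0.14, with 19 of 68 higher. The 46 members had a median of -0.31, with 7 higher, against -0.17 over all probe sets. The most negative differences were those of Rpl39l (-1.61 ± 0.82), Rps27 (-1.10 ± 0.96) and Rplp0 (-0.71 ± 0.51), and the most positive those of Rpl3l (1.05 ± 0.93), Rps6 (0.37) and Rpl14 (0.37). Limma passed 0 of 46 members and 0% of all probe sets (smallest member adjusted p 0.935, 2558 probe sets with an unadjusted p under 0.05, of which 0 were members). Both 4 h arrays were lower for 10 members, beside 23.4% of all probe sets, and higher for 2, Rps6 and Rpl3l, beside 12.8%. Within replicate numbers 1 and 2 the bright median was -0.82 and 0.22. The direction of the median rests on 1 array: it was -0.68 without replicate 2 of the 4 h group and 0.07 without replicate 1. It also turned to 0.11 with arrays centred on their medians and was -0.01 with quantile normalization. The 3 HOXB4-ER comparisons share arrays with each other and with the comparison of the constructs with TMX, so their values are not independent.

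**Figure D4:**
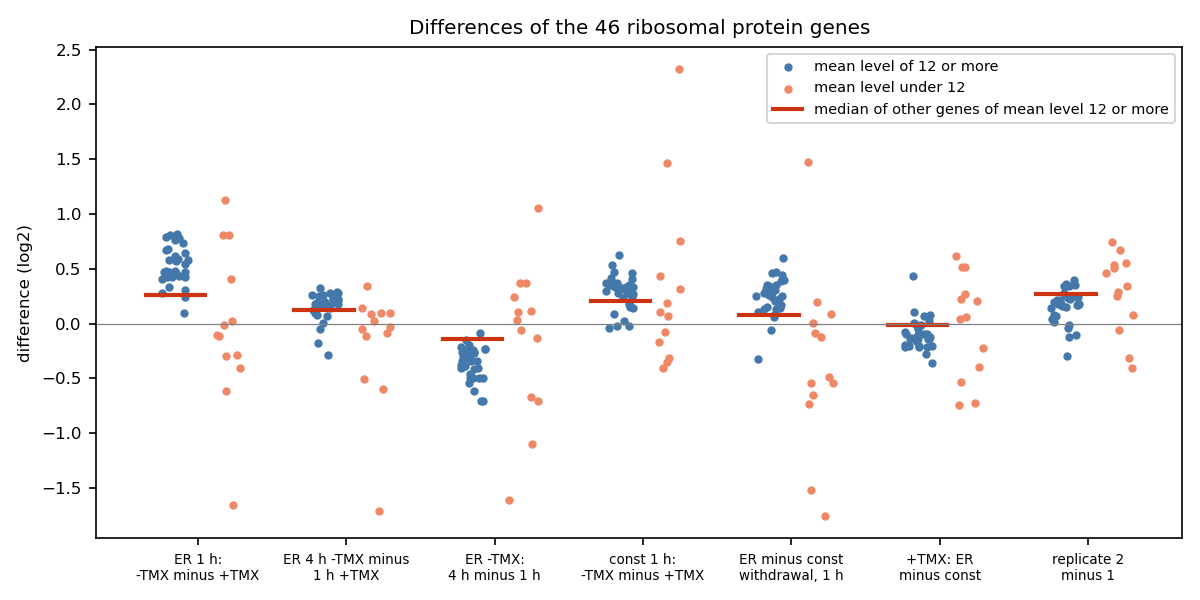
Difference of each of the 46 ribosomal protein genes (log2, y axis) in the 7 comparisons (x axis), with bright members in blue and members of mean level under 12 in orange; red bars are the median of the 68 other bright genes. At 1 h in HOXB4-ER cells all 33 blue points lie above 0 (0.10 to 0.81), and the orange points spread from -1.65 to 1.13.

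In HOXB4const cells, removal of TMX for 1 h gave bright members a median difference of 0.30, with 30 of 33 higher, and the comparison set 0.20, with 62 of 68 higher. The 46 members had a median of 0.28, with 38 higher, against 0.09 over all probe sets. Within replicate numbers 1 and 2 the bright median was 0.12 and 0.46. The sign of the median of the 46 turned with scaling, to -0.03 with centred arrays and -0.02 with quantile normalization. The largest differences were those of Rps16 (2.32 ± 0.98), Rps4l (1.47 ± 0.86) and Rpl39 (0.75 ± 0.54), and the most negative those of Rpl14 (-0.41 ± 0.51), Rps27 (-0.35) and Rps27l (-0.31). Rps16 read -0.77 and 0.89 with TMX and 3.78 and 0.99 without, with the high value on replicate 1 without TMX, where Rps4l was also highest (3.13). On that array the median of all probe sets was 5.32, against 3.96 to 4.71 on the other 9, and 0.016% of values lay below 0, against 0.38% to 8.17%, and the part of this in the differences of Rps16 and Rps4l was not tested. In limma 0 of 46 members and 0% of probe sets passed (smallest member adjusted p 0.9999), with 1956 probe sets and 1 member, Rps16, at an unadjusted p under 0.05. Both arrays without TMX were higher for 17 members, beside 15.8% of all probe sets, of which 16 were bright, against 15 of the 68 comparison genes. They were lower for 1, Rps27l, beside 9.17%, and for Rps27l this held in 1 of its 3 probe sets.

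The difference between the constructs in their response to 1 h without TMX was tested as an interaction. The median over the 46 genes was 0.20, HOXB4-ER minus HOXB4const, with 35 higher, against 0.02 over all probe sets. The bright members had 0.26, with 31 of 33 higher, and the comparison set 0.07, with 43 of 68. Rps27 (1.47 ± 1.35), Rps14 (0.60 ± 0.59) and Rpl41 (0.47) were the most positive, and Rpl3l (-1.76 ± 1.31), Rps16 (-1.52 ± 1.39) and Rpl39 (-0.73) the most negative. The difference of Rpl41 is that of 1 of its 4 probe sets. With TMX and then without, another read 11.87 and 11.72, then 12.52 and 12.47 in HOXB4-ER cells. In HOXB4const cells it read 11.92 and 12.09, then 13.22 and 13.50, a larger rise. The remaining probe sets of Rpl41 were dim, at means of 6.53 and 6.17. Limma passed 0 of 46 members and 0% of probe sets (smallest member adjusted p 1, 1698 probe sets with an unadjusted p under 0.05, of which 0 were members). The 95% interval of a bright member reached a median of 1.56 to either side. Within replicate number 1 the median of the 46 genes was 0.52 and within replicate number 2 it was -0.20.

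With TMX present in both, HOXB4-ER and HOXB4const cells were also compared. The 46 members had a median of -0.11, HOXB4-ER minus HOXB4const, with 14 higher, against -0.17 over all probe sets, and the bright members -0.12, with 6 of 33 higher, against -0.01 and 31 of 68 in the comparison set. Within replicate numbers 1 and 2 the bright median was -0.18 and -0.07. The sign of the median of the 46 genes depended on the scaling, being 0.31 with arrays centred on their medians and 0.01 with quantile normalization. Rpl3l (0.62), Rpl12 (0.52 ± 0.61) and Rpl37 (0.51 ± 0.74) were the most positive, and Rps27 (-0.75 ± 0.96), Rpl39l (-0.72 ± 0.82) and Rps16 (-0.53) the most negative. Limma passed 0 of 46 members and 0% of probe sets (smallest member adjusted p 1, 1972 probe sets with an unadjusted p under 0.05, of which 0 were members). Both HOXB4-ER arrays were lower for 11 members, all bright, beside 22.5% of all probe sets, and higher for Rpl12 and Rpl37, beside 9.28%. Of the 12 measured genes of the granulocyte list, 10 were higher and 2 lower in HOXB4-ER cells, with a median of 0.92 and 0 calls in limma. The replicates were unlike in this list. Its median deviation from the gene's own mean was 1.55 and -0.42 on replicates 1 and 2 of HOXB4-ER with TMX. In HOXB4const with TMX it was -0.44 and -0.34. The part of the granulocyte genes in the differences of the ribosomal protein genes was not tested.

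The bright genes of the large and of the small subunit (15 and 16 genes) had medians of 0.47 and 0.58 at 1 h in HOXB4-ER cells, 0.19 and 0.20 at 4 h against TMX, -0.30 and -0.39 from 1 h to 4 h, and 0.27 and 0.34 in HOXB4const cells. The difference between the subunits was not tested.

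The replicate numbers marked a difference that ran across the groups for a few members. Rps25, needed for translation from certain internal ribosome entry sites, read 8.51 and 9.05, 8.22 and 8.76, 8.52 and 8.93, 8.09 and 9.02, and 8.09 and 9.40 on replicates 1 and 2 of the 5 groups, in the order above, so that replicate 2 was higher in 5 of 5. The same held for Rpl12, Rpl14, Rpl35, Rps18 and Rps27l, that is for 6 of the 46 members in all, beside 6.72% of all probe sets and 23 of the 68 comparison genes. Rps25, Rpl12 and Rpl14 have 1 probe set each. Of the other probe sets, both of Rps27l were higher in 4 groups, the 5 of Rps18 in 0 to 4 and the 5 of Rpl35 in 3 to 5. No member was lower on replicate 2 in all 5 groups, beside 11% of all probe sets. In the fit with a term for replicate number, the difference (2 minus 1) was 0.75 ± 0.25 for Rps25, 0.67 ± 0.28 for Rpl12 and 0.55 ± 0.22 for Rpl14. The most negative were those of Rps16 (-0.40 ± 0.65), Rps4l (-0.32) and Rps19 (-0.29 ± 0.24).

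Limma passed 0 of 46 members and 0% of probe sets for the replicate term (smallest member adjusted p 0.299, that of Rps25), with 6152 probe sets and 2 members, Rps25 and Rpl14, at an unadjusted p under 0.05. With a prior that follows the intensity, limma called 2728 probe sets (6.06%, and 1.93% higher on replicate 2) and 1 of the 46 members, Rps25, at an adjusted p of 0.014. The 46 members had a median of 0.20, with 38 higher, against -0.15 over all probe sets and 0.27 in the comparison set, and it was 0.52 with arrays centred on their medians, 0.02 with quantile normalization and -0.09 with arrays centred on the comparison set. By group, the bright members' median of replicate 2 minus 1 was 0.12, -0.26, 0.82, 0.00 and 0.31. The monocyte and macrophage list runs the other way, higher on replicate 1 in all 5 groups, and its part in these differences was not tested.

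**Figure D5:**
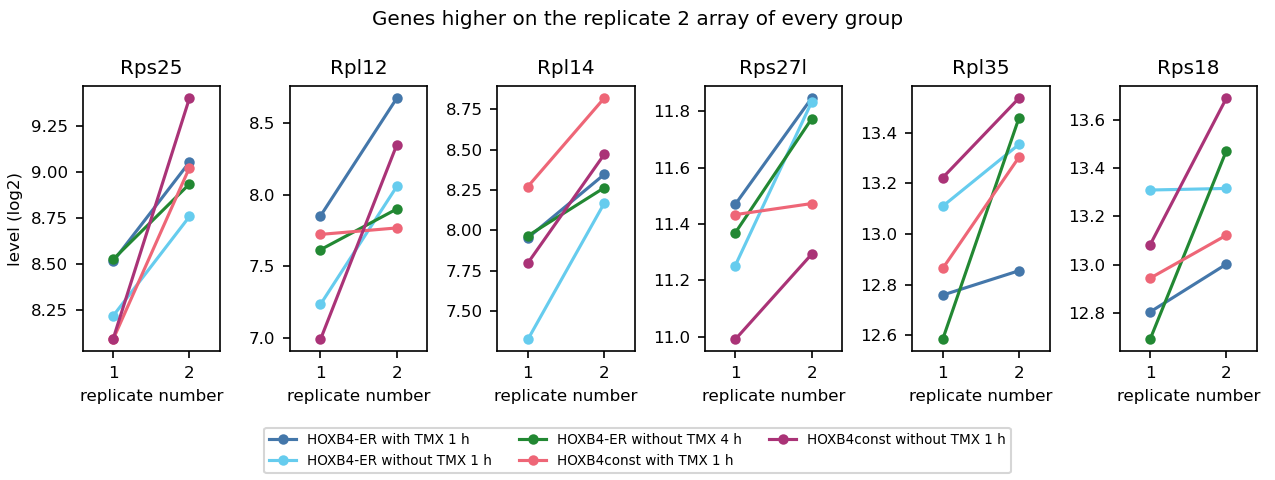
Level (log2, y axis, a separate range in each panel) of Rps25, Rpl12, Rpl14, Rps27l, Rpl35 and Rps18 on the replicate 1 and replicate 2 arrays (x axis) of the 5 groups, joined by a line per group. The genes drawn are the members that were higher on replicate 2 in all 5 groups, so every line rises by that choice. For Rps25 the levels were 8.09 to 8.52 on replicate 1 and 8.76 to 9.40 on replicate 2.

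The paralogues Rpl39l, Rpl3l and Rps4l were read below the median level of all probe sets, with no detection calls used here, and their values spread widely. Rpl39l, a testis-enriched copy of Rpl39, read 3.03 and 2.97, 3.68 and 2.12, and 1.31 and 1.26 in HOXB4-ER cells, and 2.65 and 4.79, then 3.76 and 4.56 in HOXB4const cells. Its 4 h arrays were the lowest of the 10. Its parent Rpl39 read 7.08 and 6.54, 6.87 and 6.78, and 6.96 and 6.42 in HOXB4-ER cells, and 5.98 and 7.10, then 7.06 and 7.53 in HOXB4const cells, and did not share that low. Rpl3l, the striated muscle copy of Rpl3, read 1.80 and 2.72, 0.74 and 0.47, and 1.83 and 1.48 in HOXB4-ER cells, and 0.72 and 2.56, then 2.95 and 0.54 in HOXB4const cells. Rps4l read -0.16 to 3.13, with its highest value on replicate 1 of HOXB4const without TMX, and Rps4x, the X-linked gene, read 12.67 to 13.87. Rps27l, a p53-induced copy of Rps27, read 11.47 and 11.85, 11.25 and 11.83, and 11.37 and 11.77 in HOXB4-ER cells, and 11.43 and 11.47, then 10.99 and 11.29 in HOXB4const cells. The HOXB4const pair without TMX was below its TMX pair in this probe set, while the other 2 probe sets of Rps27l overlapped, reading 11.48 and 11.05 with TMX and 10.41 and 11.58 without, and 11.22 and 10.91, then 10.68 and 11.14. Rps27 itself read 4.42 to 7.21 through its single probe set. The largest SDs within groups belonged to Rps16 (1.08), Rps27 (1.05), Rpl3l (1.01), Rps4l (0.92) and Rpl39l (0.88).

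Other genes of the translation machinery, from lists of general knowledge, also gave 0 calls in limma in any of the 7 comparisons. Of 21 measured elongation factors and other mRNAs with a 5' tract, 14 were higher at 1 h without TMX in HOXB4-ER cells, with a median of 0.13 beside 0.12 over all probe sets. The elongation factor gene Eef1a1 (0.90 ± 0.50), Tpt1 (0.74 ± 0.49) and the poly(A)-binding Pabpc1 (0.58 ± 0.48) had the smallest p in that list. Eef1a1 ran from 13.00 to 14.49 over the arrays and Tpt1 from 12.97 to 14.22. Of 4 measured ribosomal or related proteins outside the name rule, 2 were higher, and Fau, which encodes a small subunit protein fused to a ubiquitin-like part, had 0.37 ± 0.40. Of 22 initiation factors 10 were higher, with a median of -0.02, and of 20 genes of mTORC1 and of tract-dependent control 12 were higher, with a median of 0.09. Of 49 genes of ribosome assembly and the nucleolus 29 were higher at 1 h, with a median of 0.08, and 13 at 4 h against TMX, with a median of -0.20, beside -0.02 over all probe sets. The median deviation of these 49 genes from their own means was -0.22 and 0.34 on replicates 1 and 2 with TMX. At 4 h it was -0.23 and 0.06, so the replicates were unlike.

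Of 11 measured genes of p53 and ribosome stress, 3 were higher at 1 h without TMX in HOXB4-ER cells (median -0.21), 11 at 4 h against TMX (median 0.50) and 11 at 4 h against 1 h (median 0.63), with 0 calls in limma. At 4 h against TMX the cell cycle inhibitor gene Cdkn1a had 2.04 ± 0.72, the apoptosis gene Bbc3 1.71 ± 0.62 and Trp53inp1 1.22 ± 0.75, while Mdm2 had 0.31 ± 0.49. The mRNA of Rpl11, a member known to bind Mdm2 as free protein, had 0.09 in that comparison. A link between these values was not tested, and the 4 h group is also the later time.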

How the data were processed

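RNA from 10 samples was amplified linearly from 0.7 to 1 µg with a T7 oligo-dT primer, per the labels' protocols, and read on mouse Affymetrix arrays. The authors deposited 1 log2 value per probe set and array. GCOS and RMA are both named, without a role, in the submitters' processing notes. The values, with a trimmed linear mean of 100.0 on each array and unequal quantiles, behave as globally scaled GCOS signals and were not normalized again. Of 45101 probe sets, 64 controls were left out, 932 have several symbols and 9160 have none.

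Differences were fitted with limma 3.58.1 (R 4.3.3) over the 45037 probe sets, with 1 mean per group, two-sided p-values and a Benjamini-Hochberg adjustment per comparison (threshold 0.05); the procedure was tested on simulated data. Errors are limma standard errors. Arrays give no read depth, and their number limits the precision. Replicate 2 minus 1 differences correlated for all 10 pairs of groups, at 0.21 to 0.53 over 22519 probe sets, so a fit with replicate number as a block was also made. Alternatives were another scaling, a filter on dim probe sets, an intensity trend, a floor at 0, other probe sets of a gene and leaving out each array.

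The named genes were the stalk genes and Rpsa, those of highest and lowest level, the 3 of largest difference in each direction and comparison, paralogues with their parents, genes with known roles, and those of largest and smallest spread; departures and pairs of probe sets were added after seeing values. The members and all lists were chosen with earlier results of these data known. Promoter sequences came from RefSeq (GRCm38.p6).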

Additional observations from a re-analysis of the deposited data

How the results depend on the processing

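In each comparison between groups, 0 ribosomal protein genes and 0 probe sets were called in limma under every scaling, filter, prior, probe set choice and left-out array that was run. With the replicate number as a block the count also stayed at 0 in each, and the median difference at 1 h in HOXB4-ER cells was 0.47; the block changed no call. The medians of the 46 genes moved with scaling. With arrays centred on their medians they were 0.081 for HOXB4-ER at 1 h, 0.11 for 4 h against 1 h, -0.027 for HOXB4const, 0.31 for HOXB4-ER against HOXB4const with TMX, and 0.52 for replicate 2 against 1. With quantile normalization the first 3 were 0.0057, -0.012 and -0.017. Centring on the comparison set, an alternative chosen after seeing the data, gave -0.092 for replicate 2 against 1. Within replicate numbers 1 and 2, also chosen later, the median was -0.16 and 0.49 for 4 h against TMX, -0.81 and 0.20 for 4 h against 1 h, and 0.52 and -0.20 for the interaction. Leaving out 1 array gave -0.22 to 0.57 for 4 h against TMX and -0.68 to 0.073 for 4 h against 1 h, where the 4 h arrays set both ends. The other ranges were 0.35 to 0.62 (HOXB4-ER, 1 h), 0.10 to 0.47 (HOXB4const), 0.07 to 0.35 (interaction), -0.16 to -0.03 (constructs with TMX) and 0.06 to 0.33 (replicate). For replicate 2 against 1, limma called 850 probe sets among those at or above the median level and 2728 with an intensity trend, 1 member (Rps25) among the latter. The median level of the 46 genes on the lowest and highest array (12.50 and 13.22) was 12.05 and 13.72 with centred arrays, 12.83 and 12.96 with quantile normalization, 12.21 and 12.81 for probe sets without the cross-binding suffix, and 11.06 and 11.57 for a gene's probe sets averaged. Their signal share was 3.68% and 3.84%, 2.16% and 3.37%, and 1.92% and 2.98% under the last 3. The cause of these moves was not tested. Of 774 values of single genes, 32 moved by at least the gene's limma standard error in the main fit, and 1 passed the threshold (Rps25). A change of sign was recorded only where a value passed the threshold, so changes of sign in uncalled genes were not counted.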

Other observations

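The 110 probe sets that carry a ribosomal protein symbol among several were not members, and 68 of them had a mean level of 12 or more. On the arrays in the order of the report their median deviation from the own mean was -0.26 and -0.18, 0.34 and 0.15, and -0.44 and 0.35 in HOXB4-ER cells, and -0.13 and -0.13, and 0.07 and 0.33 in HOXB4const cells. Rps3a1, a small subunit gene whose symbol falls outside the name rule, ran from 13.11 to 14.18.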
